A study of Mus musculus with 4 samples.

Results

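A set of 10 genes of the trophectoderm and its simple epithelial keratins were followed in mouse embryonic stem (ES) cells labelled wild type and *Prep1*-/-. Prep1 is a homeodomain transcription factor encoded by *Pknox1*. The genes were taken by symbol from the deposited tables, and all 10 were found among the 22718 genes listed there. They are 5 transcription factors of the trophectoderm (*Cdx2*, *Gata3*, *Elf5*, *Tead4* and *Tcfap2c*), 2 basic helix-loop-helix factors of later trophoblast (*Hand1* and *Ascl2*) and 3 keratins (*Krt7*, *Krt8* and *Krt18*). The rule itself uses symbols only, but the genes were picked with earlier results of these data known. RNA-seq of polyA RNA was available for 1 wild type (WT) line and 1 line labelled *Prep1*-/- (KO2), both C57BL/6 ES cells grown in serum with leukemia inhibitory factor (LIF), with 1 library each. A list of Prep1 ChIP-seq peaks called in WT ES cells against input DNA was used as well. The label of the ChIP samples gives the strain as C57BL/6, whereas their extraction protocol names R1 ES cells, a line of a different strain background.

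The trophectoderm is the outer epithelium of the blastocyst and gives rise to the trophoblast of the placenta. In outer cells the Hippo pathway is inactive, so that YAP enters the nucleus, joins TEAD4 and turns on *Cdx2* and *Gata3*, while inner cells keep the pluripotency factors *Pou5f1*, *Nanog* and *Sox2*. The new epithelium assembles filaments of keratin 8 and keratin 18, which pair with each other and are anchored at desmosomes. ES cells come from the inner cells, and trophectoderm genes are normally low in them.

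Each gene has an estimated read count and an RPKM value (reads scaled by gene length and library size). KO/WT ratios divide the *Prep1*-/- RPKM by the WT RPKM, with genotypes as labelled. Its 95% interval comes from the exact Clopper-Pearson interval of the gene's share of reads. As each genotype has a single library, differences could not be set against replicate error and no test was possible. The intervals cover counting error only and compare the 2 libraries, not the genotypes. A gene was called lower with a WT RPKM above 1 and a ratio below 0.7, and higher with a *Prep1*-/- RPKM above 1 and a ratio above 1.5.

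The libraries held 29596294 (WT) and 25717811 (*Prep1*-/-) reads, of which the 10 genes took 30239 and 17057. *Pknox1* itself had 505 reads in the WT library and 332 in the library labelled *Prep1*-/-, a ratio of 0.736 (0.638 to 0.846). As the targeted gene kept most of its reads, the second library is named here by its label. These are RNA values, and the study reports by immunoblot that Prep1 protein was lost in KO2. The lines also differed in chromosome Y genes, of which 5 had at least 20 reads, each with 0 WT reads and between 24 and 310 reads in the library labelled *Prep1*-/-. ES cell markers were read in both libraries, most of them at a high level. The lowest of the 9 listed in each library was *Zfp42*, with RPKM 11.7 and 9.35. *Pou5f1*, the central pluripotency factor, had an RPKM of 323 in the WT library and 360 in the library labelled *Prep1*-/-. *Utf1*, an ES cell chromatin factor, was at 767 and 794.

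Of the 9 genes with a WT RPKM above 1, 5 were called lower in the library labelled *Prep1*-/-: *Cdx2*, *Hand1*, *Krt7*, *Krt8* and *Krt18*. Among all genes with a WT RPKM above 1, 13.8% were called lower. None of the 8 genes with a *Prep1*-/- RPKM above 1 was called higher, against 7.20% of all such genes. The median log2 ratio of the 10 genes was -0.56, beside -0.07 over 13218 genes whose RPKM exceeded 1 in each library. The interval of the ratio lay below 1 for 8 of the 9 genes with at least 20 reads in the libraries together, all but *Tead4*, against 36.0% of all genes with that many reads. The interval lay above 1 for none of the 9, against 20.6% of all genes. In bulk RNA, fewer cells that express a gene and less RNA per cell cannot be told apart.

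**Figure D1:**
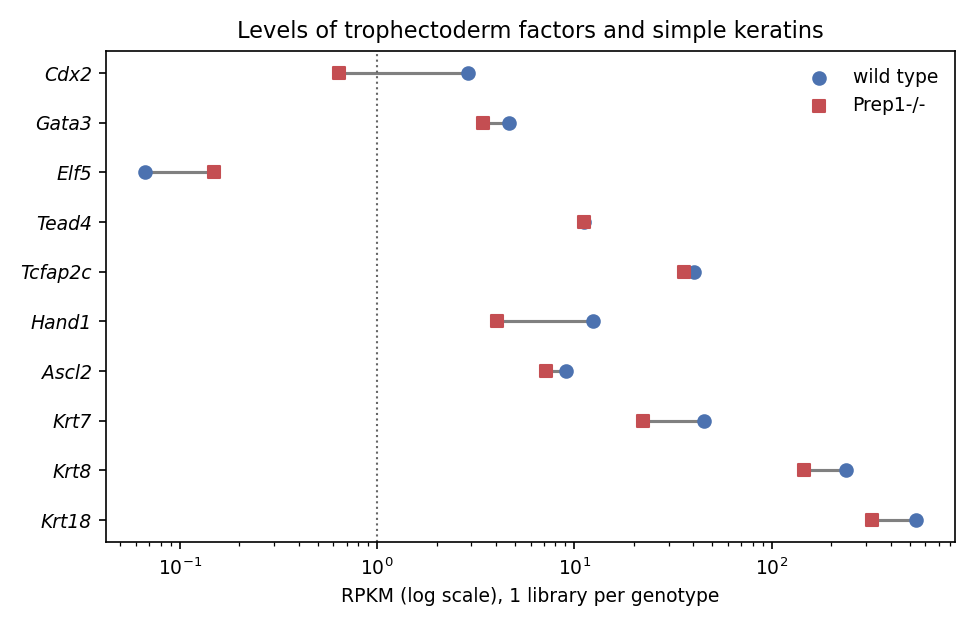
RPKM (log scale) of the 10 genes in the WT library (blue circles) and in the library labelled *Prep1*-/- (red squares), 1 library each; the dotted line marks an RPKM of 1. The points of *Tead4* coincide, *Krt18* is highest at 539 and 321, and *Elf5* lies far under 1 in both.

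*Cdx2*, the homeodomain factor that specifies trophectoderm and holds down *Pou5f1* there, had the lowest ratio of the 10 genes. The gene (ENSMUSG00000029646) lies at chr5:148112381-148118846 of mm9 on the minus strand. It had 186 reads in the WT library and 36 in the library labelled *Prep1*-/-, or RPKM 2.89 and 0.640. The KO/WT ratio was 0.221 (0.147 to 0.311), with an upper bound under the threshold of 0.7. Even in the WT library *Cdx2* was a gene of middling level, with 11263 of the genes above it, and in the other library it lay under the RPKM of 1 used as a filter.

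The other trophectoderm factors were closer to 1. *Gata3*, a zinc finger factor that acts beside *Cdx2* (chr2:9778705-9811661, minus strand), had 385 and 256 reads, RPKM 4.63 and 3.45, and a ratio of 0.744 (0.632 to 0.873). It was therefore not called, although its interval reached below 0.7. *Tcfap2c*, an AP-2 factor that trophoblast shares with germ cell precursors (chr2:172375093-172384122, plus strand), had the most reads of the factors, 3091 and 2460. Its RPKM was 40.3 and 35.9 and its ratio 0.890 (0.844 to 0.939). *Tead4*, the DNA-binding partner of YAP (chr6:128174306-128250841, minus strand), had 901 and 799 reads and RPKM 11.2 and 11.1. Its ratio of 0.992 (0.900 to 1.09) had the only interval that held 1 among the 9 genes with at least 20 reads. *Tead4* activates *Cdx2* in the embryo, and of this pair only *Cdx2* differed between the libraries beyond counting error. *Elf5*, an ETS factor of trophoblast stem cells (chr2:103251845-103291146, plus strand), had 3 reads in the WT library and 7 in the other. Its ratio of 2.24 (0.596 to 15.6) gives no direction at this depth.

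The 2 later factors also differed from each other. *Hand1*, a factor of trophoblast giant cells that is also made in lateral and extraembryonic mesoderm (chr11:57642207-57646320, minus strand), had 828 reads in the WT library and 240 in the library labelled *Prep1*-/-. Its RPKM was 12.4 and 4.03, a ratio of 0.325 (0.280 to 0.375), the second lowest of the 10 genes. *Ascl2*, an imprinted gene needed for the spongiotrophoblast layer of the placenta (chr7:150152727-150155169, minus strand), had 715 and 505 reads and RPKM 9.09 and 7.18. Its ratio was 0.790 (0.703 to 0.886), and the intervals of *Hand1* and *Ascl2* did not overlap.

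**Figure D2:**
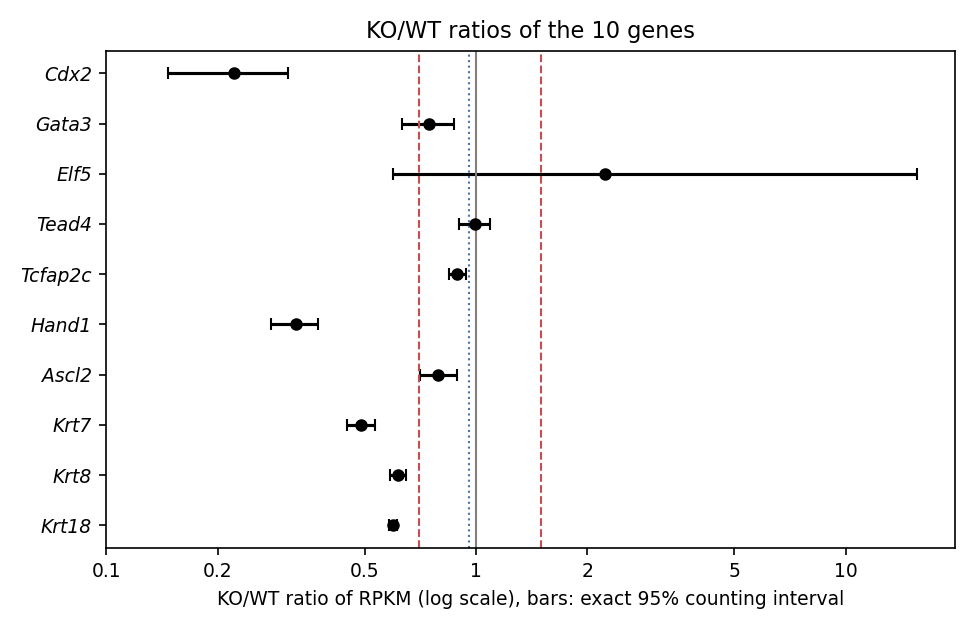
KO/WT ratio of RPKM (log axis) of each of the 10 genes with its exact 95% counting interval as a bar; dashed lines mark 0.7 and 1.5, the solid line 1 and the dotted line the median of all expressed genes. *Cdx2* (0.221) and *Hand1* (0.325) lie farthest left, the 3 keratins lie together from 0.489 to 0.614, and the bar of *Elf5* spans both thresholds.

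The keratins carried most of the reads of the 10 genes. Keratins of type I and type II form obligate pairs, and *Krt18* (type I) pairs with *Krt8* or *Krt7* (type II) in simple epithelia. *Krt18* (chr15:101858647-101862457, plus strand) had 17979 reads in the WT library and 9564 in the library labelled *Prep1*-/-, with RPKM 539 and 321 and a ratio of 0.595 (0.580 to 0.610). Only 77 genes had a higher RPKM than *Krt18* in the WT library and 171 in the other. *Krt8* (chr15:101827142-101834773, minus strand), 23874 bp from *Krt18*, had 4487 and 2463 reads, RPKM 237 and 146, and a ratio of 0.614 (0.584 to 0.645). The intervals of this pair overlapped. The level of *Krt8* relative to *Krt18*, as a quotient of RPKM, was 0.440 in the WT library and 0.454 in the other, and the ratio of these quotients was 1.03 (0.977 to 1.09). *Krt7* (chr15:101241474-101260744, plus strand), a keratin of glandular and trophoblast epithelia, had 1664 and 727 reads and RPKM 45.6 and 22.3. Its ratio of 0.489 (0.447 to 0.533) was below those of *Krt8* and *Krt18*, and its quotient to *Krt18* went from 0.0845 to 0.0694, a ratio of 0.822 (0.751 to 0.900).

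Between genes, the levels depend on the gene length behind RPKM. For *Krt8* the deposited values imply a length of 781 bp, against 1805 bp for its longest annotated transcript, and for *Krt7* 1509 bp against 4094 bp. Per kilobase of longest transcript, *Krt18* had 12842 WT reads and *Krt8* 2486, so their order was kept. *Tcfap2c* had 1036 and *Krt7* 406 on that scale, an order opposite to that by RPKM. *Ascl2* with 444 and *Hand1* with 435 also lay above *Krt7* there, although their RPKM was lower. Their implied lengths, 3254 and 2760 bp, exceed their longest annotated transcripts of 1612 and 1904 bp. The KO/WT ratio of a gene does not depend on its length. Keratin genes and their processed pseudogenes are alike in sequence, so part of their reads may have been shared out by the counting program, and the share of such reads was not tested. The study describes its transcripts as sense-strand, while the RNA kit named in the labels does not mark strand.

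Other keratins were taken as a whole family. Of 38 keratin genes in the tables, 14 had at least 20 reads in the libraries together and 9 had no reads in either. Of the 14, 5 were called lower and 2 higher, and the 5 include *Krt7*, *Krt8* and *Krt18*. *Krt5*, *Krt10*, *Krt12*, *Krt16*, *Krt80* and *Krt222* had an RPKM under 1 in both libraries and so could not be called. Over all genes that passed the filters, 13.8% were called lower and 7.20% higher. *Krt19*, a further type I keratin of simple epithelia, was lower like its relatives, with 7722 and 2841 reads, RPKM 223 and 91.6 and a ratio of 0.411 (0.394 to 0.430). Its quotient to *Krt18* went from 0.413 to 0.285, a ratio of 0.692 (0.658 to 0.727). *Krt14*, a keratin of basal epithelial cells, was called lower on 37 and 6 reads, with a ratio of 0.206 (0.0625 to 0.433). Its basal partner *Krt5* stayed under the RPKM filter with 23 and 5 reads and a ratio of 0.280 (0.0722 to 0.654). In the opposite direction, *Krt17*, a keratin of skin appendages and injured epithelia, had 401 and 567 reads and a ratio of 1.58 (1.39 to 1.80). *Krt42*, another type I keratin, had 642 and 1227 reads and a ratio of 2.14 (1.94 to 2.35). *Krt20*, a keratin of gut epithelium, had 80 and 100 reads and a ratio of 1.39 (1.03 to 1.90). The remaining keratins, *Krt10*, *Krt12*, *Krt16*, *Krt80* and *Krt222*, had between 8 and 38 reads in a library, and every one of their intervals held 1.

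**Figure D3:**
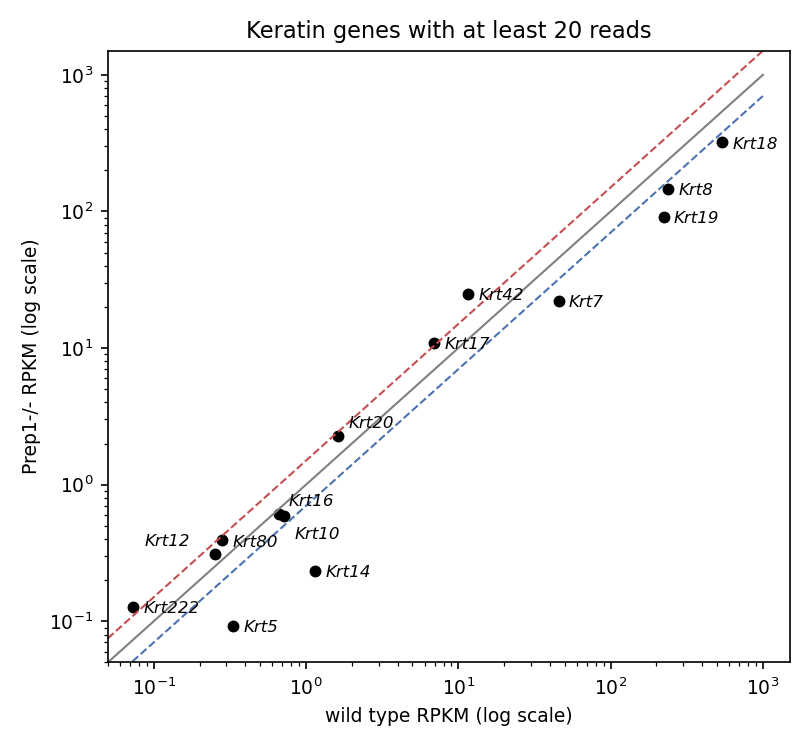
WT RPKM (x axis) against RPKM in the library labelled *Prep1*-/- (y axis), both log scales, for the 14 keratin genes with at least 20 reads; the solid line marks equal values and dashed lines ratios of 0.7 (blue) and 1.5 (red). The 4 keratins with the highest WT levels (*Krt18*, *Krt8*, *Krt19*, *Krt7*) lie under the lower line, and *Krt17* and *Krt42* lie above the upper one.

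Prep1 peaks were then placed against the 10 genes on mm9. None of the 10 had one of the 3902 peaks from 500 bp upstream to 100 bp downstream of its start, against 8.59% of the 21446 annotated genes. None had a peak within the gene, against 11.9%. A peak within 20 kb of the start was found for 2 genes, *Cdx2* and *Krt8*. A peak at the start, in the gene or within 20 kb was found for 21.0% of all annotated genes and for 26.4% of those with a WT RPKM above 1, so 2 of 10 is near the background.

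The peak next to *Cdx2* (chr5:148104550-148105296, 747 bp) lay 13.55 kb downstream of the gene's start and 7.09 kb beyond its end, in no gene, and *Cdx2* was the nearest annotated start. Its enrichment over input was 45-fold, above that of 71.0% of the peaks. The peak next to *Krt8* (chr15:101814469-101815116, 648 bp) was weaker, 19-fold, above 44.7% of the peaks. It lay 19.7 kb downstream of the start of *Krt8* and 43.5 kb upstream of that of *Krt18*, in no gene, with *Krt8* as the nearest start. A stretch of 240 bases of each peak, the one that holds its motif matches, is printed because these are the bound regions closest to *Cdx2* and to the *Krt8* and *Krt18* pair. Both are from the plus strand of mm9, 5′ to 3′, and capitals mark matches of TGANTGNCA, the first letters of a relaxed form of the Prep1 decamer, on either strand.

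Peak downstream of Cdx2, chr5:148104757-148104996: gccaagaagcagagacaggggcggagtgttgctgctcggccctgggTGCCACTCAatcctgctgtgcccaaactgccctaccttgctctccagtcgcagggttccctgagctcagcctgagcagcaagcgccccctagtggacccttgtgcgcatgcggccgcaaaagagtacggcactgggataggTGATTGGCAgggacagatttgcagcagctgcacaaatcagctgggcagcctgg
Peak downstream of Krt8, chr15:101814597-101814836: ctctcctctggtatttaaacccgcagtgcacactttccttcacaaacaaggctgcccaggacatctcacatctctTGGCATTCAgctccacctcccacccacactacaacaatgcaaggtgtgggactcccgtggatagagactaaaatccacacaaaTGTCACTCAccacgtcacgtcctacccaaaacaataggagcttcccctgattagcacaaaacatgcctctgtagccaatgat

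The *Cdx2* stretch held TGATTGGCA on the plus strand (chr5:148104944-148104952) and TGAGTGGCA on the minus strand (chr5:148104803-148104811). The *Krt8* stretch held TGAGTGACA (chr15:101814755-101814763) and TGAATGCCA (chr15:101814672-101814680), both on the minus strand and so shown above as their reverse complements. Of the 4 matches, only TGAGTGACA also fits the stricter form TGANTGACA. The stricter form was found on either strand in 34.6% of all peaks, searched over their whole length, and in 1.64% of the windows from 250 bases before to 50 after each annotated start. The relaxed form, which includes the stricter one, was found in 49.1% and 4.49%. Neither form was found in that window of any of the 10 genes. A match describes the letters only, and neither peak was tested for an effect on a gene.

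For the other genes the nearest peak was farther away. The one nearest to *Hand1* had a 112-fold enrichment and lay 30.4 kb downstream, but it was 0.08 kb from the start of *Sap30l*, a gene for a histone deacetylase complex subunit. *Sap30l* had 472 and 370 reads and a ratio of 0.877, and the whole of this peak held no match. For *Gata3*, *Elf5*, *Tead4*, *Tcfap2c*, *Ascl2* and *Krt7* the nearest peak was between 123 and 1887 kb from the start.

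Genes around the 10 were compared to see whether low ratios extended over a region. Within 250 kb of *Cdx2*, 4 genes passed an RPKM of 1 in each library with at least 20 reads, and none was called lower, with ratios from 0.713 to 0.944. *Pdx1*, a homeodomain gene of the pancreas in the same ParaHox cluster, was the nearest gene with at least 20 reads. It had 30 and 2 reads and a ratio of 0.108 (0.00863 to 0.294), below that of *Cdx2*, and was not called because its WT RPKM of 0.506 was under the filter. Around *Hand1* none of 4 such genes was called lower, with a median ratio of 0.970, and around *Krt7* none of 4, with a median of 0.891. Around *Krt8*, 3 of 10 were called lower: *Krt18*, *Igfbp6*, a binder of insulin-like growth factors, with 0.507 (0.371 to 0.675), and *Tenc1*, a focal adhesion gene, with 0.656 (0.587 to 0.730). Of all genes with a WT RPKM above 1, 13.8% were called lower. On the other side of *Krt8* no gene within 250 kb had 20 reads. *Eif4b*, a translation initiation factor and the nearest gene downstream of *Krt18*, had 5482 and 4701 reads and a ratio of 0.959 (0.922 to 0.997). The median ratios of the chromosomes that hold the 10 genes lay between 0.923 and 1.03.

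**Figure D4:**
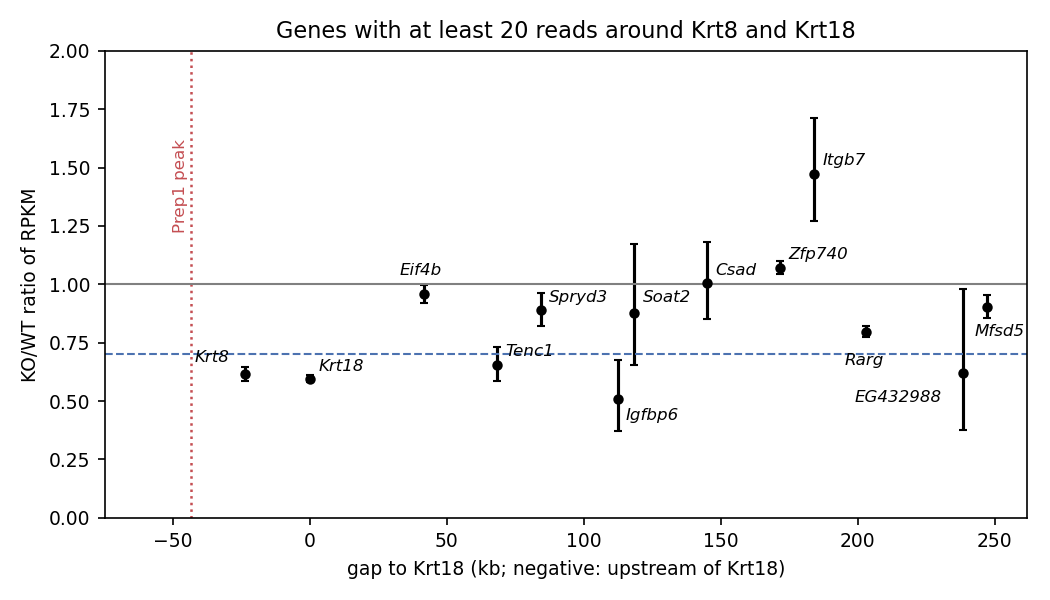
KO/WT ratio of RPKM (y axis) with exact 95% counting intervals for genes with at least 20 reads, against their gap to *Krt18* in kb (x axis, negative upstream); the dotted red line is the nearest Prep1 peak and the dashed blue line a ratio of 0.7. *Krt8* (0.614) and *Krt18* (0.595) lie below the line and *Eif4b* (0.959) next to them lies above it.

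The regulators upstream of *Cdx2* were read from the Hippo pathway. Of 20 genes listed 19 were found, all with a WT RPKM above 1. Of these, 4 were called lower and none higher, and the median ratio was 0.806. Over all genes that passed the filters, 13.8% were called lower and 7.20% higher. The interval lay below 1 for 11 of the 19 and above 1 for 3. Of all genes with at least 20 reads, these shares were 36.0% and 20.6%. *Yap1*, the co-activator that binds TEAD factors, had RPKM 46.3 and 47.3 and a ratio of 1.02 (0.985 to 1.06). Its relative *Wwtr1* had RPKM 15.8 and 12.0 and a ratio of 0.758 (0.723 to 0.795), not low enough for a call. *Tead1* and *Tead2*, relatives of *Tead4*, had ratios of 1.05 and 0.922. *Tead3*, the member of the family best known from placenta, was called lower at 0.592 (0.535 to 0.653). The other genes called lower were *Vgll4*, a TEAD cofactor that competes with YAP, at 0.695 (0.589 to 0.817), *Amot*, a scaffold that holds YAP at junctions, at 0.667 (0.628 to 0.709), and *Cyr61*, a YAP target. *Cyr61* had the most reads of the list, 13894 and 7669, and a ratio of 0.617 (0.600 to 0.635). Among kinases and scaffolds, *Stk3* had 1.43 (1.27 to 1.61) and *Nf2* 1.31 (1.28 to 1.35), under the threshold for a call. *Mobkl1b* was not analysed here.

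Other trophoblast genes differed in both directions. Of 24 listed, 17 were found, 5 were called lower and 3 higher, and the median ratio of the 14 with at least 20 reads was 1.02. The WT RPKM was above 1 for 14 of the 17, and 13.8% of all such genes were called lower. The *Prep1*-/- RPKM was above 1 for 12, and 7.20% of all such genes were called higher. The lower ones were *Eomes*, a T-box factor of trophoblast stem cells and of the primitive streak, at 0.504 (0.443 to 0.572), *Gata2* at 0.536, *Tcfap2a* at 0.683, the labyrinth factor *Gcm1* at 0.629, and *Dlx3*, a placental homeodomain gene, at 0.460 (0.380 to 0.550). The higher ones were *Fgfr2*, the receptor for the FGF4 that keeps trophoblast stem cells, at 1.58 (1.44 to 1.74), and the X-linked homeobox genes *Rhox6* at 2.06 and *Rhox9* at 1.97. For *Fgfr2* the study's RT-qPCR, on ES cells and differentiating cells, was reported in the opposite direction, with less RNA in *Prep1*-/- cells. *Bmp4*, with the most reads of the list, had 0.798 and *Ets2* had 1.13, neither of them called. *Tpbpa*, *Prl3b1* and *Hsd3b6*, genes of differentiated placental cells, had 0 reads in both libraries. *Prl3d1*, *Prl2c2*, *Syna*, *Synb*, *Ctsj*, *Ctsq* and *Peg10* were not analysed here.

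Genes that anchor keratin filaments or seal epithelia were lower in many cases. Of the 20 listed and found, 9 were called lower and none higher, the median ratio was 0.723, and the interval lay below 1 for 19. All 20 had a WT RPKM above 1, and 13.8% of all such genes were called lower. Of all genes with at least 20 reads, 36.0% had an interval below 1. *Ppl* and *Evpl*, plakins that link keratin to the cell envelope, had 0.507 (0.453 to 0.565) and 0.613, and the desmosomal plaque gene *Pkp3* had 0.511 (0.461 to 0.565). *Krt19* had the lowest ratio of the list. Claudins 4, 6 and 7, which form tight junctions, were called lower as well, *Cldn6* with 13346 and 6875 reads and a ratio of 0.576 (0.559 to 0.593). The desmosomal cadherin *Dsc2* had 0.659 and *Cldn4* 0.672, the highest ratios among the 9. *Cdh1*, the E-cadherin gene that ES cells also use, led the list by reads with 33467 and 21403 and had a ratio of 0.715, just above the threshold. It lies on chromosome 8, where the median ratio of genes with an RPKM above 1 in each library was itself low, at 0.779. *Plec1*, the plectin that ties keratin to hemidesmosomes, had a ratio of 0.930.

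Markers of other cell types differed beside the 10 genes. Over all genes, 13.8% of those with a WT RPKM above 1 were called lower. Of those with a *Prep1*-/- RPKM above 1, 7.20% were called higher. The WT RPKM was above 1 for all 9 ES cell markers, 6 of 10 primitive endoderm markers and 6 of 8 mesoderm and streak markers. Of 9 ES cell markers none was called lower and 1 higher, *Klf4* at 1.58 (1.53 to 1.64), with a median ratio of 1.30. *Esrrb*, with the most reads, had 1.32. The only ratio of the 9 below 1 was that of *Zfp42*, 0.801 (0.684 to 0.934). Of 10 primitive endoderm markers 5 were called lower and none higher, *Gata4* at 0.339 (0.300 to 0.382), *Gata6* at 0.456, *Dab2* at 0.667, *Ttr* at 0.424 and *Amn* at 0.597. *Sox7*, an endoderm factor, went the other way with 119 and 148 reads and a ratio of 1.39 (1.09 to 1.79), and *Afp* had 1 and 6 reads. The summed RPKM of the endoderm list was 18.1 in the WT library and 9.87 in the library labelled *Prep1*-/-. Of 8 mesoderm and streak markers 5 were called lower and none higher, *T* (Brachyury) at 0.249 (0.215 to 0.285), *Mixl1* at 0.300, *Tbx4* at 0.376, *Kdr* at 0.639 and *Eomes*, which also stands in the trophoblast list. *Tbx6* did not differ beyond counting error, with 159 and 143 reads and a ratio of 1.01 (0.797 to 1.27), and *Hand2* had 5 and 7 reads. The summed RPKM of the mesoderm and streak list was 33.2 and 12.4. No marker of these lists had 0 reads in both libraries. The part of such cells in the values of *Cdx2*, *Hand1* and the keratins was not tested.

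**Figure D5:**
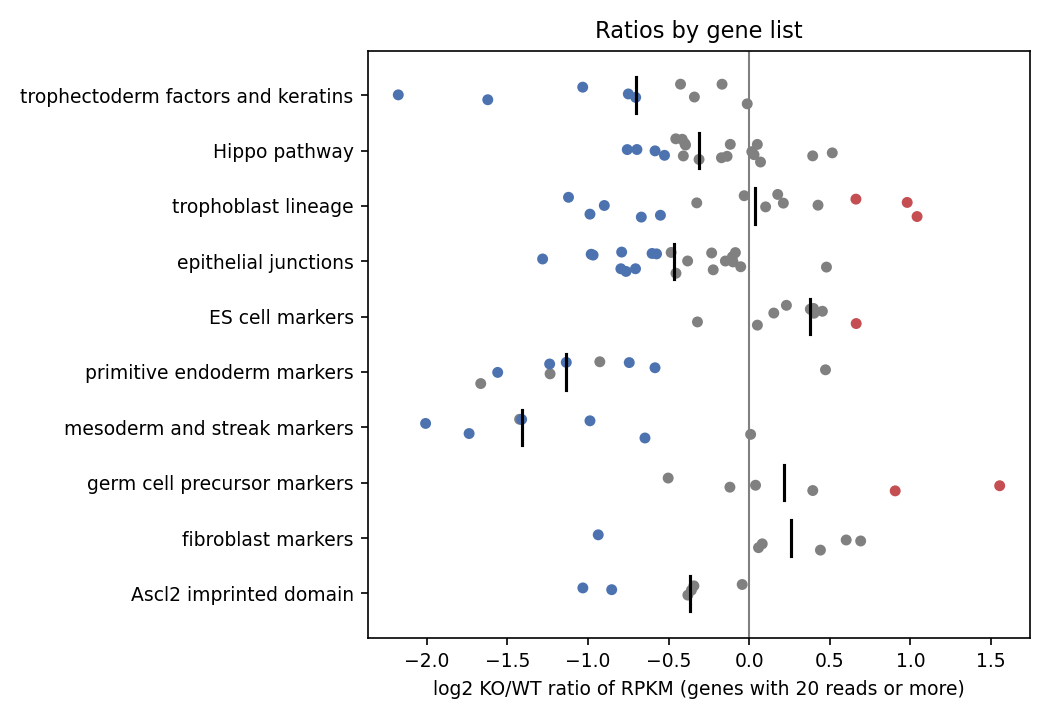
log2 KO/WT ratio of RPKM (x axis) of the genes of each list with at least 20 reads, 1 point per gene, blue for genes called lower, red for genes called higher and grey for the rest; black bars are medians over these genes. The bar of the trophectoderm factors and keratins lies at -0.70, left of the bars of all other lists except those of primitive endoderm (-1.13) and mesoderm (-1.41).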

How the data were processed

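RNA-seq libraries (1 WT, 1 *Prep1*-/-) and 1 list of Prep1 ChIP-seq peaks were used. Per the study's methods and the submitters' processing notes, RNA was read as paired-end 50 bp reads, assigned to Ensembl transcripts of mm9 with RSEM and analysed with DESeq. The authors deposited estimated counts as whole numbers. The authors also deposited RPKM, which is proportional to the count plus 1, and 85 genes with an RPKM of Inf were left out of ratios. The ChIP reads were mapped with BWA and peaks called with MACS against input. The deposited peak score is the fold enrichment, rounded. Program versions are not given in the sources used here.

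Ratios of RPKM carry the authors' added read, and nothing further was added. Their exact intervals used the read counts and a factor of 1.12 from read ratio to RPKM ratio, and a gene under 20 reads has a wide one. Intervals for ratios of keratin quotients used a normal approximation on the log scale instead. No count test was run, since each genotype has 1 library. The code for calls and intervals was first run on simulated counts that held counting error only, with large changes set in genes with many reads. Calls near the thresholds, peaks and motifs were not tested in this way. GENCODE M1 on mm9 gave positions for 21446 genes. All 10 genes are named, together with *Pknox1*, the keratins with at least 20 reads and nearby genes. From each list the called genes (with more than 6, those with the 3 lowest and 3 highest ratios) and the 2 with the most reads are named. *Yap1*, *Wwtr1*, *Tead1*, *Tead2*, *Stk3*, *Pou5f1*, *Zfp42*, *Cldn6*, *Cldn7*, *Sox7*, *Afp*, *Tbx6*, *Hand2*, *Nanos3*, *Dppa3*, *Pdx1*, *Sap30l* and genes with 0 reads are named in addition, chosen after their values were seen. The 10 genes and the lists were chosen with earlier results of these data known. Alternatives were 3 scalings, 2 pseudocounts, other filters, thresholds, windows and peak folds. Values were computed in Python 3.11.15 with scipy 1.17.1, pandas 2.3.3 and numpy 2.4.6, and plotted with matplotlib 3.10.9.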

Additional observations from a re-analysis of the deposited data

How the results depend on the processing

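No paired analysis was possible because each genotype has 1 library, and no library could be left out. *Cdx2*, *Hand1*, *Krt7*, *Krt8* and *Krt18* were called lower under every scaling, pseudocount and RPKM filter tried. With thresholds of 0.5 and 2, 3 of the 10 genes were called lower, and of the other lists 9 genes in place of 30 were called lower and 2 in place of 6 higher. The share of all genes called was computed only with the main thresholds and filter, so these counts have no background beside them. Without an RPKM filter 1 of the 10 genes, *Elf5*, was called higher on 10 reads, and 10 genes of the other lists were. The median log2 ratio of the 3 keratins was -0.68 with the median ratio of expressed genes set to 1 and -0.64 with that of each chromosome set to 1, in place of -0.75. Of 50 ratios of single genes under 5 alternatives, 48 stayed on the same side of 1, the other 2 being *Tead4*. With 1 added to RPKM, the ratio of *Cdx2* was 0.421. Within 50 kb, 4 of the 10 genes had a Prep1 peak, against 32.6% of all genes. A minimum fold of 100 left 0, against 3.69%, and one of 20, chosen after seeing the data, left 1, against 12.9%.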

Other observations

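*Tcfap2c* is shared with germ cell precursors, and of 6 markers of these cells none was called lower and 2 higher. All 6 had an RPKM above 1 in each library. Over all genes that passed the filters, 13.8% were called lower and 7.20% higher. *Prdm14*, a germ cell and ES cell regulator, had 186 reads in the WT library and 490 in the library labelled *Prep1*-/-, a ratio of 2.94 (2.48 to 3.51). *Prdm1*, which represses somatic genes in these cells, had a ratio of 1.87 (1.59 to 2.22). *Dnd1* and *Ddx4*, germ cell RNA-binding genes and 2 of those with the most reads, had 1.03 and 1.31. The remaining 2 of the 6 had ratios below 1 and were not called. *Nanos3*, on chromosome 8, had 216 and 136 reads and a ratio of 0.706 (0.564 to 0.877). *Dppa3* had 316 and 260 reads and a ratio of 0.921 (0.778 to 1.09).

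The imprinted domain around *Ascl2* was read from 8 of 9 genes listed, of which 2 were called lower and none higher, with a median ratio of 0.774. The WT RPKM was above 1 for 6 of the 8, and 13.8% of all such genes were called lower. *Cdkn1c*, a cell cycle inhibitor expressed from the maternal allele, had 1903 and 832 reads and a ratio of 0.489 (0.450 to 0.531). *Phlda2*, a maternal brake on placental growth, had 5998 and 2970 reads and a ratio of 0.554 (0.530 to 0.579). *Cd81*, with the most reads, had 0.780, near the 0.790 of *Ascl2*. *Tspan32*, 35782 bp from *Ascl2*, was called higher with 106 and 193 reads and a ratio of 2.03 (1.60 to 2.61). R74862, 52520 bp away, was called lower with 158 and 95 reads and a ratio of 0.675 (0.516 to 0.873). The nearest gene with 20 reads, OTTMUSG00000018795, had 43 and 53 reads and a ratio of 1.37 (0.904 to 2.11). *Kcnq1ot1* was not analysed here.

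Of 7 fibroblast markers, 4 had a WT RPKM above 1, and 13.8% of all such genes were called lower. Among the 7, 1 was called lower and none higher. It was *Twist1*, a mesenchymal factor, at 0.523 (0.397 to 0.675), while *Col1a1*, the collagen gene with the most reads of the list, had 976 and 1186 reads and a ratio of 1.36. *Col1a2* had 1.06. *Lum* had 0 and 2 reads.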
